A study of Mus musculus with 12 samples.

Results

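The genes of the RUNX transcription factors, of their shared partner CBFb and of the ETO co-repressors were examined in a map of accessible chromatin of the mouse blood system. The 6 genes were Runx1, Runx2, Runx3, Cbfb, Runx1t1 and Cbfa2t3, and their peaks were the rows of the master peak-list, the study's combined list of ATAC-seq peaks, that carried one of these names as the gene with the nearest transcription start site (TSS). They numbered 109 of the 84243 peaks in the list, or 0.129%. ATAC-seq marks open chromatin by where a transposase can insert, and it had been performed on 12 samples from wild-type C57BL/6 mice aged 8 to 12 weeks. The samples were 2 replicates of each of 6 sorted cell types, namely hematopoietic stem cells (HSCs), megakaryocyte progenitors (MkPs), erythroid progenitors (EPs), granulocyte/macrophages (GMs), B cells and T cells, taken from bone marrow or thymus. The list pooled the peaks of all 6 cell types, so a peak in it was open in at least one of them, and it did not say in which. No value below could therefore be compared between cell types, none has an error between replicates, and none was tested. Depth per sample is unknown. The authors also filtered the list to its most significant peaks, so a site absent from it need not be closed. Intervals are 95% Wilson intervals and cover counting error only.

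RUNX1, RUNX2 and RUNX3 share the runt domain, which recognises the DNA string TGTGGT, or less often TGCGGT, and which binds far better once CBFb, a subunit that does not touch DNA itself, is attached. RUNX1 is needed for the first blood stem cells to form and for platelet and lymphocyte development, RUNX2 is best known as the master regulator of bone, and RUNX3 acts in T cells and natural killer cells. Each of these genes is transcribed from a distal promoter, P1, and from a proximal promoter, P2, that lies inside the gene. RUNX1T1 (ETO) and CBFA2T3 (ETO2) belong to another family, which binds no DNA on its own and brings histone deacetylases to factors such as TAL1, and RUNX1T1 is known as the part fused to RUNX1 in a form of acute myeloid leukemia.

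The P1 promoters of the RUNX genes shared a stretch of sequence. The P1 promoter peaks of Runx1, Runx2 and Runx3, on 3 different chromosomes, held the same 18 bases, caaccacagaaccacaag, which contain the RUNX string 2 times in the same direction, separated by 2 bases. These stretches of 30 bases are shown because they carry that match. They come from RefSeq promoter windows of GRCm38.p6, the assembly of mm10, and read 5′ to 3′ on the strand of the gene, with ACCACA, the reverse complement of TGTGGT, in capitals. The Runx2 stretch ends in a further RUNX string, TGCGGT, which is left in lower case because it is outside the shared bases.
Runx1 P1, chr16:92826025-92826054, minus strand: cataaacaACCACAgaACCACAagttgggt
Runx2 P1, chr17:44814583-44814612, minus strand: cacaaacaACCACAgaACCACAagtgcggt
Runx3 P1, chr4:135120503-135120532, plus strand: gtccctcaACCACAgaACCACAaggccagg

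In Runx1 the shared 18 bases began at base 27, counting the P1 TSS as base 1. In Runx2 they began at base 22, counted in the same way from the P1 TSS that the RefSeq window uses. In Runx3 they began 136 bases upstream of the TSS. The middle of the stretch lay 14 bp from the centre of the P1 peak in Runx1, 136 bp in Runx2 and 75 bp in Runx3. Across all 84243 master peaks the 18 bases, on either strand, occurred in 3, and those 3 were the RUNX P1 peaks. Among the 32851 RefSeq promoter windows, which run from 250 bases before to 50 after each start, they occurred in 4, which were the P1 windows of Runx1, Runx2 and Runx3 and the window of the antisense transcript Gm16225, which covers the same DNA as the Runx3 P1 window. The looser form, a pair of TGTGGT strings in the same direction with any 2 bases between them, was present in 67 master peaks (0.0795%) and in 5 of 13171 promoter peaks. The other promoter peaks with it belonged to Card6 and Nfkbil1. No other peak of the 6 genes held the pair. The pair was searched after the P1 sequences had been seen, so its presence in the 3 genes is a description, and a match to the string does not show that a factor is bound.

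P1 and P2 also differed in CG content. The 250 bases before P1 and P2 of Runx1 and of Runx3 are shown for that contrast, from the same RefSeq windows, 5′ to 3′ on the strand of the gene, with each CG in capitals. The table of RefSeq windows had P1 but not P2 of Runx2, and had none for Runx1t1.
Runx1 P1, chr16:92826075-92826324, minus strand: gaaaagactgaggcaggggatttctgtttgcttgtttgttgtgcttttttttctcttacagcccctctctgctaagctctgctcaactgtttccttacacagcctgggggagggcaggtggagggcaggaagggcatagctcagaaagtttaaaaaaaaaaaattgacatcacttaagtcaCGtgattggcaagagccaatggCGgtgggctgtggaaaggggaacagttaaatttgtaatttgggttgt
Runx1 P2, chr16:92697330-92697579, minus strand: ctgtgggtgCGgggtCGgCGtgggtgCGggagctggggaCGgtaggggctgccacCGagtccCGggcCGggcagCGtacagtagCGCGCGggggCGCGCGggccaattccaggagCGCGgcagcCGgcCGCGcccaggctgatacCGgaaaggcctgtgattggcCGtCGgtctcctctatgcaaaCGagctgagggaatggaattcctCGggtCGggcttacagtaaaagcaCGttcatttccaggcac
Runx3 P1, chr4:135120395-135120644, plus strand: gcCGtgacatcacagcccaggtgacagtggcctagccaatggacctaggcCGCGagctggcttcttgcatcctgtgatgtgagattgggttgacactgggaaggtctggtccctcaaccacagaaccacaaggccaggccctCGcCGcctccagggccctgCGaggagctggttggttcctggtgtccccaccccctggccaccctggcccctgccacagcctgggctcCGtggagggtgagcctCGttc
Runx3 P2, chr4:135152295-135152544, plus strand: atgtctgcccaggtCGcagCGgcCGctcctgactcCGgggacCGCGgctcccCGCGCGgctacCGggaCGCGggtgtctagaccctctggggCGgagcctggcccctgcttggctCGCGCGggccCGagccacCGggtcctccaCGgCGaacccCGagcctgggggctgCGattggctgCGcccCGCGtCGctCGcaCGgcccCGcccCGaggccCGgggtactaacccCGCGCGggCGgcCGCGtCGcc

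The Runx1 P1 sequence held 2 CG dinucleotides in 250 bases and the P2 sequence 27. In Runx3 the counts were 8 at P1 and 38 at P2. GC content was 45.6% before P1 and 67.6% before P2 in Runx1, and 65.2% before P1 and 78.8% before P2 in Runx3. In both genes P2, not P1, was the CG-rich start.

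A P1 peak and a P2 peak were present in all 3 RUNX genes. Distances here run from the TSS to the peak centre, negative upstream, and all peaks were 499 bp wide. Runx1 lies on the minus strand of chromosome 16. Its P1 peak, chr16:92825777-92826275, was centred at +48 bp and its P2 peak, chr16:92697201-92697699, at -121 bp. Runx2 lies on the minus strand of chromosome 17. Its P1 peak, chr17:44814485-44814983, was centred at +63 bp of the nearest curated start and at -107 bp of the other P1 start. Its P2 peak, chr17:44735971-44736469, was centred at -44 bp of the nearest start and at +428 bp of the other P2 start. Runx3 lies on the plus strand of chromosome 4. Its P1 peak, chr4:135120194-135120692, was centred at -202 bp. Its P2 peak, chr4:135152731-135153229, was filed in the list as exon 2 of the P1 transcript, 32335 bp from a TSS, but the curated RefSeq transcript that begins at P2 places it at +435 bp. Counted by RefSeq, all 8 distinct curated start positions of the 3 genes had a peak centre within 500 bp. Among 2016 protein-coding genes with start sites in 2 or more groups at least 1000 bp apart, 431 (21.4%) had a peak at every group, where 58.7% had a peak at the first and 40.8% at the last. Runx1, Runx2, Runx3 and Runx1t1 were among the 431 and Cbfa2t3 was not.

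The 3 P1 peaks were CG-poor and held RUNX strings, and the 3 P2 peaks were CG-rich and held none. The Runx1 P1 peak had a GC content of 46.7%, an observed/expected CG ratio of 0.258 and 3 RUNX strings (TGTGGT or TGCGGT, either strand). The Runx1 P2 peak had 69.7%, 0.860 and 0. For Runx2 the values were 48.7%, 0.189 and 5 at P1 and 72.7%, 0.981 and 0 at P2. For Runx3 they were 59.1%, 0.301 and 3 at P1 and 71.5%, 0.894 and 0 at P2. P1 and P2 did not overlap in any of these 3 measures, with 3 peaks on each side. How often the start sites of other genes separate in this way was not counted. The separation holds for the named peaks and not for all open chromatin near P2. The next Runx1 peak, at +513 bp of P2, was not counted as P2 and had 54.1%, 0.712 and 2 RUNX strings. The next peaks downstream of P2 in Runx2, at +1413 bp, and in Runx3, at +1291 bp, held 0. At least 1 RUNX string was present in 4531 of 13171 promoter peaks (34.4%), so most promoter peaks held none, as the P2 peaks did. The median promoter peak of the whole list had a GC content of 63.3% and a CG ratio of 0.778. As many as 3 RUNX strings were present in 154 of 13171 promoter peaks (1.17%), and 5 were present in 5 (0.0380%). CG ratios at or below those of P1 of Runx1, Runx2 and Runx3 were found in 6.92%, 3.99% and 8.64% of promoter peaks. For P2 of the same genes these shares were 67.6%, 89.2% and 74.5%.

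**Figure D1:**
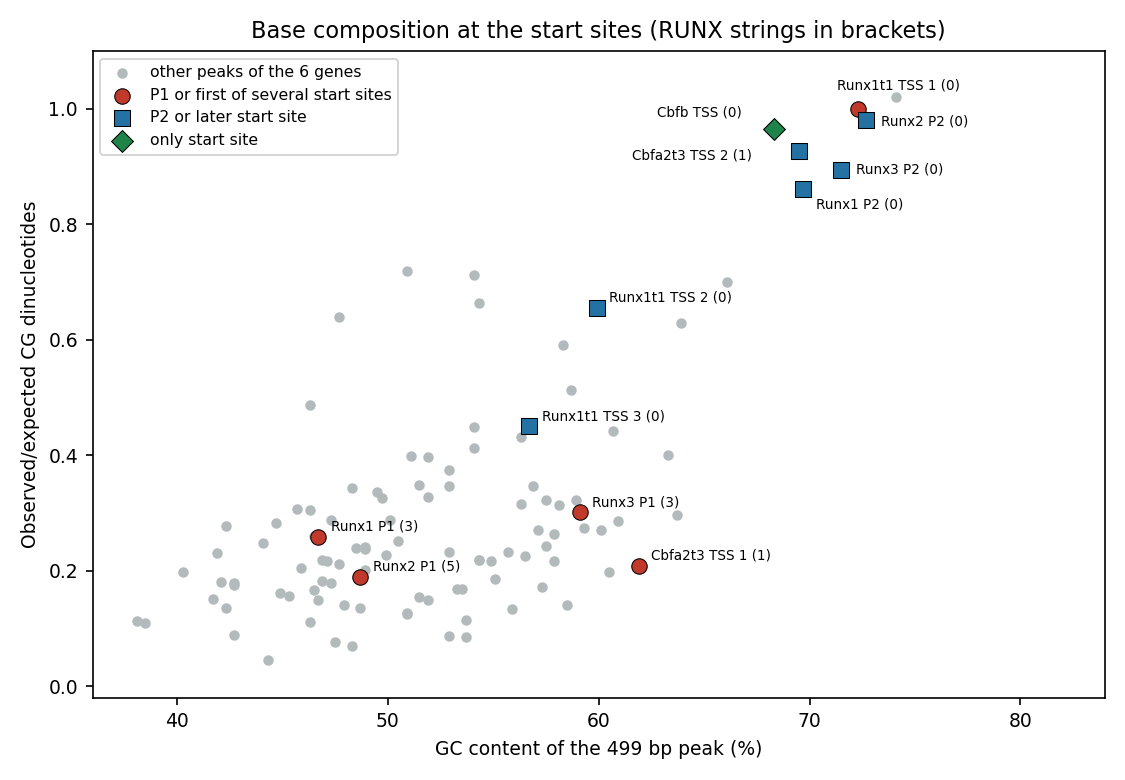
GC content of each 499 bp peak (percent, horizontal) against its ratio of observed to expected CG dinucleotides (vertical). Grey points are other peaks of the 6 genes, coloured points are the peaks at RefSeq start sites, and brackets give the number of RUNX strings. The P1 peaks of Runx1, Runx2 and Runx3 sit between 0.189 and 0.301 and the P2 peaks between 0.860 and 0.981.

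The other start sites did not follow a common order. Cbfb has a TSS group of its own, and its promoter peak, chr8:105170350-105170848, was centred at -75 bp with a GC content of 68.3%, a CG ratio of 0.964 and no RUNX string. Cbfa2t3 resembled the RUNX genes in CG content. The peak at its first TSS, chr8:122699052-122699550, was centred at -192 bp with a CG ratio of 0.209, and the peak nearest to its second TSS, chr8:122678564-122679062, lay at -638 bp, outside the promoter limit, with a ratio of 0.926. Each of these held 1 RUNX string. A predicted RefSeq start, not among the curated ones used here, lay 56 bp from the centre of the second of these peaks. Runx1t1 had no such order. The peaks nearest to its first, second and last start sites had ratios of 1.00, 0.655 and 0.450, and the other peak at the first, centred at -454 bp, had 0.412. Its promoter peaks were centred at -454 and +164 bp of the first TSS, -71 bp of the second and +334 bp of the last, and all 4 held no RUNX string.

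Across the 6 genes, 11 peaks were promoter peaks, centred within 500 bp of a TSS by the list's distances. This is 10.1% (95% interval 5.73 to 17.2%) against 15.6% of the whole list. As shares of the same 109, 49 non-promoter peaks lay in introns, or 45.0% (35.9 to 54.3%) against 40.5% of the whole list, and 44 were intergenic, or 40.4% (31.6 to 49.8%) against 37.6%. The remaining 5 were exonic or of another class (4.59% against 6.22%). They include the Runx3 P2 peak, 32335 bp from a TSS by the list. It counts as non-promoter in every class count and median given here. The intervals for introns and intergenic peaks included the share of the whole list, as did that for promoters. The median distance to a TSS was 40850 bp over the 98 non-promoter peaks and 22261 bp over the 71072 of the whole list. By gene this median was 56019 bp in Runx1, 62167 in Runx2, 47828.5 in Runx3 and 71911.5 in Runx1t1, but 5293 in Cbfb and 10404 in Cbfa2t3. A neighbouring peak within 2 kb was found for 41 of the 109 (37.6%), and for 28.5% of all peaks. The genes differed, with 12 of 18 peaks in Cbfa2t3, 8 of 19 in Runx2, 4 of 10 in Runx1t1, 2 of 4 in Cbfb, 11 of 35 in Runx1 and 4 of 23 in Runx3.

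**Figure D2:**
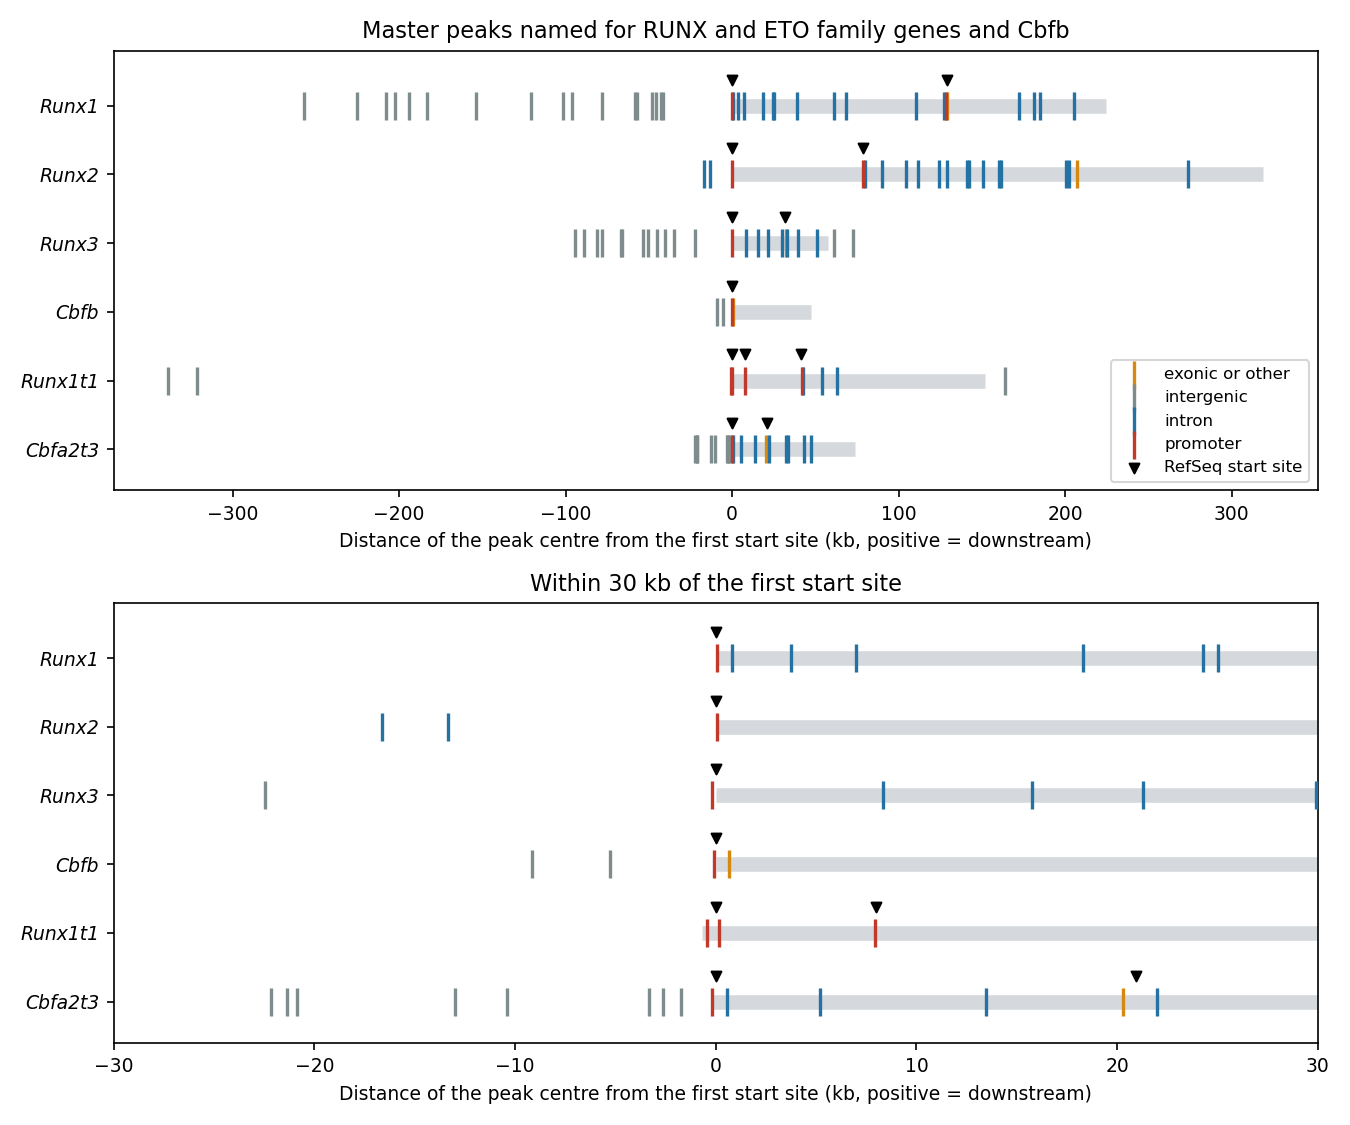
Position of each of the 109 peaks relative to the first curated start site of its gene (kb, positive downstream), with a lane for each gene, the gene span in grey and RefSeq start sites as triangles. The upper panel shows all peaks and the lower panel those within 30 kb. Runx1 has 17 peaks upstream of P1, none of them nearer than 41.5 kb, and Runx2 has 15 peaks downstream of its P2 promoter peak.

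Runx1 had 35 peaks, a number that 42 of 19040 genes (0.221%) reached, where the median gene had 3. Its density within the gene was less unusual, with 8.01 peaks per 100 kb, which 21.8% of protein-coding genes of 40 kb or more reached. They fell into 2 promoter peaks, 15 intron peaks, 17 intergenic peaks and 1 peak in the 5′ UTR of the P2 transcript. The list placed 17 peaks upstream of P1, from 41454 to 257244 bp away, and no peak between them and the P1 promoter peak. A further 13 lay between the P1 and P2 start sites, promoter peaks included, and 5 downstream of P2. The nearest non-promoter peak was centred at +513 bp of P2 and the farthest at -257244 bp of P1. The nearest neighbours were the P2 promoter peak and the +513 bp peak, 634 bp apart. The widest stretch without a Runx1 peak, 42.7 kb, followed downstream of P2, from +513 to +43258 bp.

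The intron between P1 and P2 of Runx1 is known to hold an enhancer that is active in blood stem cells. No file used here marks its position, so no peak was assigned to it. The interval spans 128745 bp and held 13 peaks, or 10.1 per 100 kb. Among 805 genes whose first and last start sites lie 20 kb or more apart, the median was 4 peaks between them, or 5.37 per 100 kb, and 82 genes had as many as Runx1. All 13 were named Runx1. Behind the P1 promoter peak, intron peaks were centred at 794, 3750, 7010, 18292, 24286 and 25011 bp from P1, so 6 of the 11 intron peaks lay in the first 30 kb. The next were at 38841, 61136, 68295 and 110332 bp. The last, at 127461 bp, was 1284 bp upstream of P2 and on a CpG island. The peak at 68295 bp lay on a repeat element, counted by the list from P2 as -60450 bp. A RUNX string was present in 7 of the 11 intron peaks, an ETS string in 7 and a GATA string in 4, where 46.9%, 65.0% and 26.9% of all non-promoter peaks in the list held them. The peak at 3750 bp held 3 RUNX strings, the same number as P1.

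Runx3 had 23 peaks, a number reached by 248 genes (1.30%), and like Runx1 it had a run of intergenic peaks upstream. There were 12 peaks upstream of the P1 promoter peak, the nearest of them at -22482 bp and the farthest at -94526 bp, which was the farthest of the gene. Introns held 7, among them the nearest non-promoter peak at +8341 bp. Between P1 and P2, 31900 bp apart, 4 peaks were present, or 12.5 per 100 kb. Beyond the end of the gene there were 2. The nearest neighbours, at -66861 and -66078 bp, were 783 bp apart. Within the gene, which is 57.3 kb long, the density was 14.0 peaks per 100 kb. The median of 5993 protein-coding genes of 40 kb or more was 3.99, and 4.91% were as dense as Runx3.

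Runx2 had 19 peaks, a number reached by 411 genes (2.16%), and its pattern was intronic. Within the gene it had 6.27 peaks per 100 kb, with those named for another gene included, and 31.5% of genes of 40 kb or more were as dense. Introns held 16, no peak was intergenic, 2 were promoter peaks and 1 lay in a non-coding exon. Downstream of the P2 promoter peak there were 15 peaks, from +1413 to +195270 bp, which were the nearest and the farthest of its non-promoter peaks. The nearest neighbours were the P2 promoter peak and the +1413 bp peak, 1457 bp apart. The peaks at -16631 and -13324 bp of P1 lay in intron 2 of the neighbouring gene Supt3, which runs across the 5′ part of Runx2. Between P1 and P2 no peak other than the P1 promoter peak was named Runx2. The 78149 bp interval, taken between the most upstream start of each group, held 3 more peaks, all named Supt3 because its TSS was nearer. That at -47 bp of a Supt3 start was a promoter peak of Supt3. With those 3 peaks the interval held 4 peaks, or 5.12 per 100 kb, against the median of 5.37.

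Cbfb, the partner of all 3 RUNX proteins, had 4 peaks, and 7849 genes (41.2%) had as many. Besides the promoter peak they were an exon peak at +637 bp and intergenic peaks at -5293 and -9162 bp. The exon peak and the promoter peak were the nearest neighbours, 712 bp apart. No intron of Cbfb held a peak under its name in 47.3 kb of gene, and the density of 2.11 per 100 kb was exceeded or equalled by 69.7% of protein-coding genes of 40 kb or more. A peak at the 3′ end of the gene was named D230025D16Rik.

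The ETO genes differed in how tightly their peaks were set. Cbfa2t3 had 18 peaks, a number reached by 485 genes (2.55%), all within 26524 bp of a TSS. Of these, 8 were in introns and 8 intergenic, and 9 lay upstream of its first TSS when the promoter peak is included. Its nearest non-promoter peak was at +551 bp and its farthest at +26524 bp. The nearest neighbours, at -20869 and -21385 bp, were 516 bp apart, and 12 of the 18 had a neighbour within 2 kb. Its density within the gene, 16.2 per 100 kb with 2 peaks named Pabpn1l included, was reached by 2.65% of genes of 40 kb or more. Runx1t1 had 10 peaks, a number reached by 1992 genes (10.5%), and 4.59 per 100 kb within the gene, which 44.1% of genes of 40 kb or more reached. Its nearest non-promoter peak was at +1072 bp, and its farthest at -338515 bp, close to another at -321620 bp. The 321.2 kb from there to the promoter held no Runx1t1 peak. The nearest neighbours were its promoter peaks at -454 and +164 bp, 618 bp apart.

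**Figure D3:**
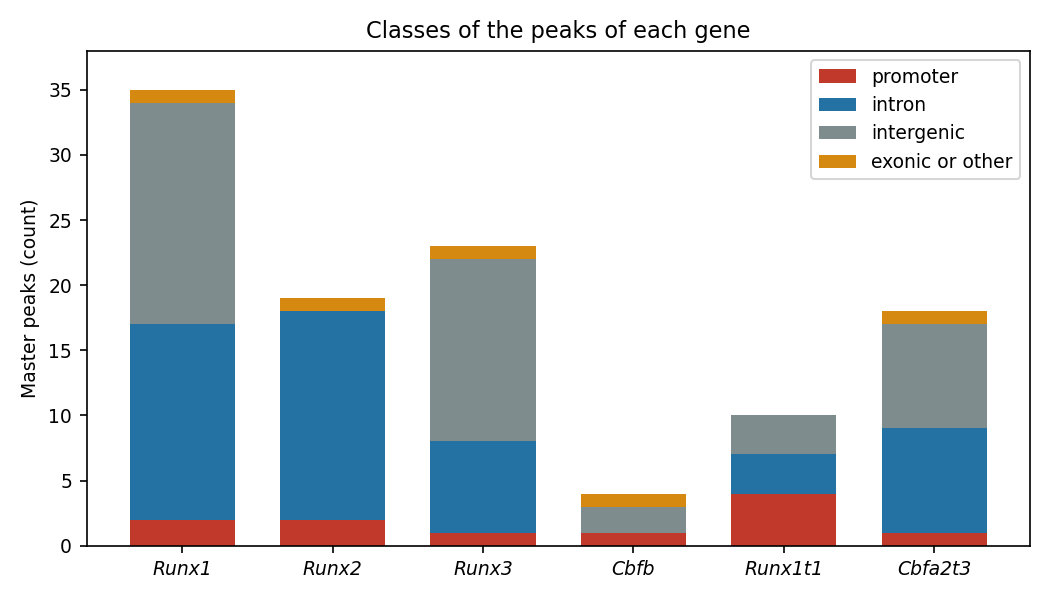
Number of master peaks of each gene (vertical) by class. Promoter peaks are centred within 500 bp of a TSS by the list's distances, and the other peaks follow the annotation of their centre. The Runx3 P2 peak is thus in the exonic or other class. Runx1 has 17 intergenic peaks and Runx3 14, whereas Runx2 has none. Of its 19 peaks 16 are in introns, those in an intron of the overlapping gene Supt3 included.

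**Figure D4:**
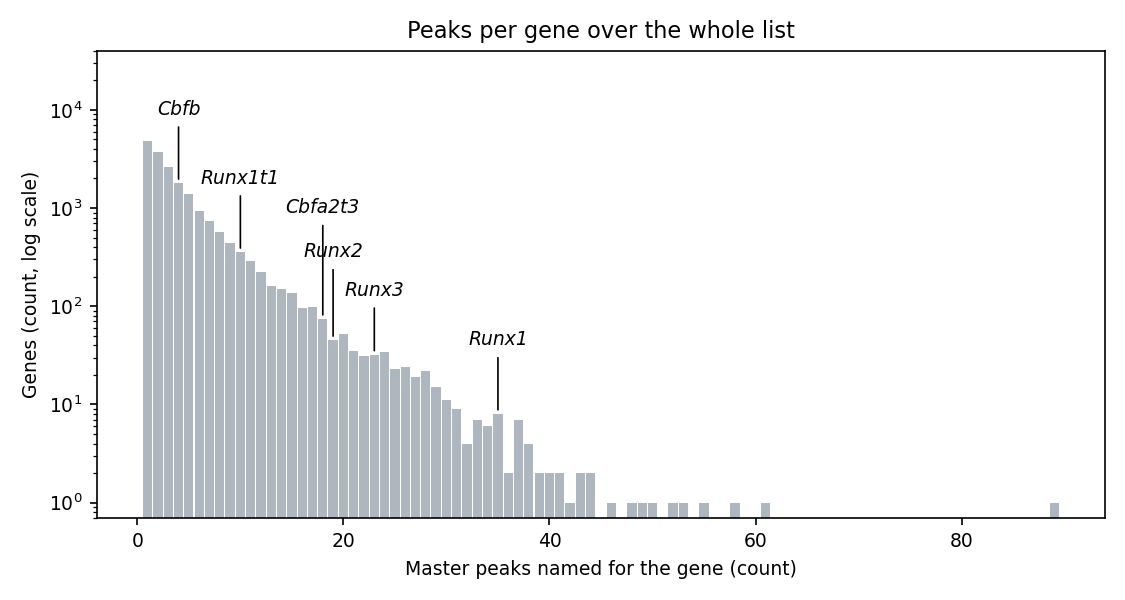
Number of genes (vertical, log scale) by the number of master peaks that carry their name (horizontal), with the 6 genes marked. The median gene has 3 peaks, Cbfb 4 and Runx1 35.

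RUNX factors act in blood stem cells beside ETS factors and GATA2, so the peaks were also searched for the strings that these bind. The ETS string was AGGAAG. The string for GATA factors was AGATAA, and as for RUNX both strands were read. All 3 were present in 9 of 109 peaks, or 8.26% (4.40 to 15.0%), against 7.07% of the whole list. Of these, 5 belonged to Runx1, 3 to Runx2 and 1 to Runx3. The peak of each gene with the 3 strings closest together is shown, because these are the regions where the partners' strings meet. Each window is 300 bases of the peak from GRCm38.p6, with the RUNX, ETS and GATA strings in capitals.
Runx1, chr16:92800834-92801133, plus strand: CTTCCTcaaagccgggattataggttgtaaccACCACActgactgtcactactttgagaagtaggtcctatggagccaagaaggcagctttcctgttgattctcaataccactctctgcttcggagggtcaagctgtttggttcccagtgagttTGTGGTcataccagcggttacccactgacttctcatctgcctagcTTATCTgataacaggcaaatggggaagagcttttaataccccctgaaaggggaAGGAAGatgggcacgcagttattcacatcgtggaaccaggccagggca
Runx2, chr17:44673860-44674159, plus strand: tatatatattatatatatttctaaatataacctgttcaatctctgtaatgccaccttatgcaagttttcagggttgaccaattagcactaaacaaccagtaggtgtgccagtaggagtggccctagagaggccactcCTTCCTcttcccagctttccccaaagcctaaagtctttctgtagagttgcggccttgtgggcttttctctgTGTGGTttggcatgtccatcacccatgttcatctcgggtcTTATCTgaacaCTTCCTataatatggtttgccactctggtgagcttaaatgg
Runx3, chr4:135075447-135075746, plus strand: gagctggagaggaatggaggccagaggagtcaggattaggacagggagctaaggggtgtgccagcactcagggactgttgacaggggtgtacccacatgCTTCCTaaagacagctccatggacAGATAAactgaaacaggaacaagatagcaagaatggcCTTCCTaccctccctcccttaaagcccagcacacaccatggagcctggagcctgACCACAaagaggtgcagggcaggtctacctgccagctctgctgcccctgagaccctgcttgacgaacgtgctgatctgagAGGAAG

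In the first, the Runx1 intron peak 25011 bp from P1 (chr16:92800814-92801312), the smallest stretch with all 3 strings was 104 bp, and the peak held 2 RUNX, 3 ETS and 1 GATA string. In the Runx2 intron peak 62167 bp from P2 (chr17:44673760-44674258) the stretch was 57 bp. In the Runx3 intergenic peak 45050 bp upstream of P1 (chr4:135075346-135075844) it was 97 bp. The other Runx1 peaks with all 3 were centred at -58063 and -48143 bp of P1, at +61136 bp of P1 and at +56019 bp of P2, with stretches of 405, 202, 179 and 283 bp. The other Runx2 peaks were at +128613 and +195270 bp of P2, with stretches of 267 and 208 bp. Only the Runx1 peak at +25011 bp and the Runx3 peak at -45050 bp had all 3 strings within the central 200 bp, among the 9.

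A RUNX string was present in 54 of the 109 peaks, or 49.5% (40.3 to 58.8%), against 45.0% of the whole list. The interval includes the whole-list share. By gene, 19 of 35 Runx1 peaks held it, 12 of 19 Runx2 peaks, 12 of 23 Runx3 peaks and 9 of 18 Cbfa2t3 peaks. It was in 2 of 10 Runx1t1 peaks and in none of the 4 Cbfb peaks, where the interval reaches 49.0%. Among non-promoter peaks the share was 51.0% against 46.9%, and among promoter peaks 4 of 11 against 34.4%. ETS strings were in 65.1% of the peaks (62.4% of the list) and GATA strings in 28.4% (24.1%). E-boxes (CAGCTG or CAGGTG), which TAL1 and its partners bind, were in 50.5% (51.9%), and AP-1 strings (TGANTCA) in 12.8% (15.3%). The 95% interval of each of these shares included that of the whole list.

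**Figure D5:**
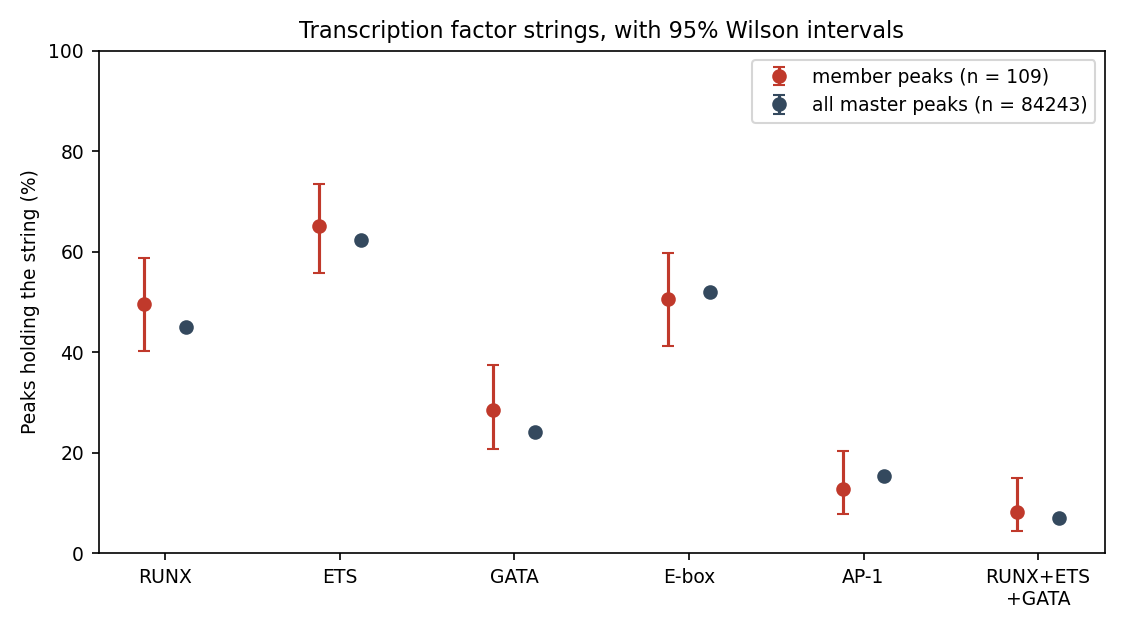
Share of peaks that hold each string (percent, vertical), for the 109 peaks of the 6 genes in red and all 84243 master peaks in dark blue, with 95% Wilson intervals as bars. The red intervals include the dark blue points for every string and for RUNX, ETS and GATA together.

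Other genes known to work with these factors were present in the list, and 15 of the 17 reported had a promoter peak, as did 64.5% of all genes named in it. The stem cell factors that bind with RUNX1 had 4 to 38 peaks (median 12) and a promoter peak in 7 of 7. Fli1 and Erg, both ETS factors, had 38 and 29, Lmo2 had 14, Lyl1 12, Tal1 6, and Ldb1 and Gata2 had 4 each. Of the corepressors that ETO proteins recruit, Ncor1 and Sin3a had 2 peaks each and Hdac3 had 1, with a promoter peak in 3 of 3. Known RUNX targets had 2 to 5 peaks, and 4 of 6 had a promoter peak. They were Spi1 and Csf1r with 5 each, Itga2b and Zbtb7b with 4 each, and, without a promoter peak, Mpo with 4 and Cd4 with 2. Cbfa2t2, the remaining ETO family gene, had 2 peaks, 1 of them at its promoter. In number of peaks Runx1 lay between Erg and Fli1, and Cbfb had as many as Ldb1 and Gata2.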

How the data were processed

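ATAC-seq of 12 samples (2 replicates of 6 cell types) had been processed by the authors with the ENCODE pipeline on mm10, without multimapping reads. They joined the reproducible peaks of each cell type and filtered them with chromVAR to the most significant, non-overlapping peaks. The list was annotated with HOMER, version 4.10.2 per the labels. Starts, ends and distances to the TSS, in bp, were used as the authors deposited them. The deposited peak score was 0 in every peak and was not used.

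Peaks were taken by gene name, and the 6 genes and all lists were chosen with earlier results of these data known. Named one by one were promoter peaks, the nearest and farthest non-promoter peak and nearest neighbours of each gene, Runx1 peaks between P1 and P2, and peaks with RUNX, ETS and GATA strings together. The peak centre was the mean of start and end. Start sites came from curated RefSeq transcripts of GRCm38.p6, the assembly of mm10, and were grouped when under 1000 bp apart. P1 was the most distal group and P2 the proximal group. Sequence was read with pysam 0.24.0, samtools 1.23.1 and Python 3.11.15, and strings were searched on both strands of the whole peak. The search and the classes were tested on simulated data. A gene of the lists is not reported here. No test between groups was possible. Alternatives changed the assignment of peaks, the promoter limit, the transcripts and the strings.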

Additional observations from a re-analysis of the deposited data

How the results depend on the processing

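Of 17 alternatives, 9 left the count within 1.5 times the value given and 8 moved it further. Taking peaks by position gave 69 peaks with at least 1 bp inside a gene span and 66 centred in one, in place of 109. These settings leave out intergenic peaks by construction. A promoter limit of 100 bp left 5 promoter peaks in place of 11 (9.59% of the whole list then), and 3 of the 8 RUNX start positions had a peak within it. The longer string TGTGGTT was in 20 of the 109 peaks (18.3%, 16.1% of the whole list), and the central 200 bp held a RUNX string in 34 (31.2%, 27.0% of the whole list). All of RUNX, ETS and GATA were in 2 peaks in the central 200 bp (1.83%, 1.36% of the whole list), and in 27 with GGAA for ETS and GATAA for GATA (24.8%, 20.9% of the whole list). RefSeq classes gave 50 intron and 44 intergenic peaks, close to the 49 and 44 of the list. Runx1 had 13 peaks between P1 and P2 whatever their gene name.

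No paired analysis was possible because the list pools all samples and gives no value per sample, and for the same reason no replicate was left out. No stricter peak score was applied, as all scores were 0. A gene name marks the nearest TSS and not a target. Without reads per peak, neither the strength of a peak nor the cell types it was open in can be given.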

Other observations

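Shares of the other strings among the peaks of each gene follow. These are counts picked after their values were seen, and no test was made. E-boxes were in 15 of 18 Cbfa2t3 peaks (83.3%, 95% interval 60.8 to 94.2%) but in 5 of 19 Runx2 peaks (26.3%, 11.8 to 48.8%), against 51.9% of the whole list. GATA strings were in 6 of 10 Runx1t1 peaks (60.0%, 31.3 to 83.2%) and in 2 of 23 Runx3 peaks (8.70%, 2.42 to 26.8%), against 24.1%. The Runx3 interval includes that whole-list share. AP-1 strings were in none of the 18 Cbfa2t3 peaks, where the interval reaches 17.6% and so includes the 15.3% of the whole list. Base composition differed as well. The non-promoter peaks of Cbfa2t3 and Runx3 had a median GC content of 57.1% and 56.4%, and those of Runx1, Runx2 and Runx1t1 had 48.9%, 46.3% and 44.0%. The part of base composition in the string counts was not tested. Peaks on repeat elements numbered 12 of 109 (11.0%, 15.1% of the whole list), with 3 of 10 in Runx1t1, 4 of 19 in Runx2, 3 of 23 in Runx3, 2 of 35 in Runx1 and none in Cbfb or Cbfa2t3.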
